A study of Mus musculus with 2 samples.

Results

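The miR-30 family was followed in the miRNA content of extracellular vesicles, the membrane particles that cells shed into their medium. Its members were the miRNA probes of the code set named miR-30 followed by a letter from a to e, whichever arm of the hairpin they detect. The rule uses names only and found 6 of the 420 miRNA probes: rno-miR-30a, rno-miR-30b-3p, rno-miR-30b-5p, rno-miR-30c, rno-miR-30d and rno-miR-30e, written below without the species prefix. In both vesicle preparations miR-30c gave the highest count of the 6, followed by miR-30d and miR-30b-5p, and these 3 had lower counts in vesicles released after IL-1β stimulation than in control vesicles. In the authors' deposited table of normalized signals this order between the samples holds for miR-30c but not for miR-30d and miR-30b-5p.

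The IL-1β vesicles came from primary cortical astrocytes given interleukin-1β, a cytokine of brain inflammation, at 200 ng per ml, and were collected 2 h later. The control vesicles are labelled as from astrocytes with no treatment, and their title and the series design give a collection of every particle shed in 24 h. The protocol text attached to the control sample is the same as that of the IL-1β sample and describes the stimulation, so the identity of the control rests on its title, source, treatment label and the design. The effects of treatment and of collection time cannot be told apart. All the cells carried GFAP-EGFP, a green fluorescent reporter driven by the promoter of the astrocyte filament gene GFAP. Per the labels, the cultures were started from the cortex of mice at postnatal day 1, were 98% positive for GFAP and were used between passages 3 and 10, with medium from 8 to 10 flasks pooled. With 1 sample per group, differences have no replicate check, and groups could not be tested against each other, so p-values are left out. Intervals are at 95% confidence and cover counting error only, neither the error of the scaling nor the spread between cultures.

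A miRNA guides Argonaute to messenger RNAs that pair with its seed, the bases 2 to 8 from its 5′ end, and lowers their output. Members of a family share the seed and so are taken to share most targets, while the rest of the sequence sets them apart. The miR-30 guides come from the 5p arm of their hairpins, are conserved among mammals and are expressed in many tissues, brain included. Targets described for them include Snai1, a transcription factor of epithelial to mesenchymal transition, and Dll4, a Notch ligand.

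The mature mouse sequences of the probes' targets are shown because the family's shared seed and the few bases that separate its members bear on how far the probes can tell them apart. They are from RefSeq (GRCm38.p6) for the 3 members that the table holds, miR-30a, miR-30c and miR-30e, written 5′ to 3′ with the seed in capitals.
miR-30a-5p: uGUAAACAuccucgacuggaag
miR-30c-5p: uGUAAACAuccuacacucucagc
miR-30e-5p: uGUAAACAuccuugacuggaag
Counted from the 5′ end, these sequences are identical over their first 12 bases. From miR-30a-5p to miR-30e-5p there is 1 difference in 22 bases, C13U. From miR-30a-5p to miR-30c-5p there are 5 differences over the 22 bases compared, C13A, G14C, G18C, G19U and A20C. Of the 1679 mature mouse names in the table, 4 carry this seed, the other one being miR-384-5p. Its probe gave 0 counts in IL-1β vesicles and 1 count in control vesicles. For the 0 counts, a 1-sided 95% limit allows up to 3 counts, or 0.0222% of the miRNA total in IL-1β vesicles.

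In the mouse genome (GRCm38.p6), miR-30a-5p lies at chr1:23272274-23272295 on the plus strand, in the gene Mir30a. The same mature miR-30c-5p is made at chr1:23291714-23291736 on the plus strand (Mir30c-2) and at chr4:120769584-120769606 on the minus strand (Mir30c-1), so 1 probe counts the product of both loci. miR-30e-5p lies at chr4:120772660-120772681 on the minus strand (Mir30e). The 6 loci form 3 pairs: Mir30a with Mir30c-2, Mir30c-1 with Mir30e, and Mir30b with Mir30d on chromosome 15. Mir30c-1 and Mir30e both lie within Nfyc, the gene of a subunit of the transcription factor NF-Y, and are 2983 bases apart.

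The assay was the NanoString nCounter, where tagged small RNAs are bound by colour-coded reporter probes and counted one by one. The code set was designed for rat, while the labels give mouse. The 420 miRNA probes summed to 13514 counts for IL-1β vesicles and 16812 for control vesicles, with a median of 5 counts per probe in both. A probe was called above background where its count was over the mean + 2 SD of the 8 negative controls in its own lane, 9.67 counts for IL-1β vesicles and 6.41 for control vesicles. A second view of background came from the 69 probes with no mouse miRNA gene of their number, whose median was 15 counts in IL-1β vesicles and 13 in control vesicles. Over all 420 miRNA probes, 34.8% passed the threshold in IL-1β vesicles, 44.0% in control vesicles and 33.1% in both. Of the 69 with no mouse counterpart, 59.4% passed in IL-1β vesicles and 71.0% in control vesicles. The numbers of passing probes below are to be read beside these shares. Of miRNAs listed as astrocyte-rich, 11 of 11 probes were above background in both preparations. They summed to 24.5% of IL-1β vesicle counts and 28.7% of control vesicle counts. As background, none of them is confined to astrocytes. Of neuron-rich miRNAs 1 of 6 passed in IL-1β vesicles, miR-132 with 13 counts. In control vesicles 2 of 6 passed, miR-132 with 58 counts and miR-134 with 7. The probes of miR-129, miR-134 and miR-137 were at 0 in IL-1β vesicles. The listed miR-218 was not matched to miR-218a and miR-218b, which are left out of the 6. Of these, miR-218a passed in both with 12 counts in each, and miR-218b passed in control vesicles with 12, against 8 in IL-1β vesicles. Of the mural and fibroblast list 4 of 5 passed in each, at 6.24% of counts in IL-1β vesicles and 8.71% in control vesicles. The oligodendrocyte, microglia and leukocyte, endothelial, erythroid, hepatocyte and muscle lists each held at most 0.696% of counts in either. Some of their probes still passed: 3 of 5 of the muscle list in each preparation. The oligodendrocyte list passed with 1 of 4 in IL-1β vesicles and 2 of 4 in control vesicles. The microglia and leukocyte list passed with 1 of 5 in IL-1β vesicles and 2 of 5 in control vesicles. The endothelial and hepatocyte probes passed in control vesicles only, and no erythroid probe passed. The 4 mRNA probes of the code set were 5.79- to 63.3-fold higher in IL-1β vesicles on the same scale as the miRNAs. The part of these other RNAs in the miR-30 values was not tested.

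The family as a whole was a small part of the vesicle miRNA. Its 6 probes summed to 104 counts in IL-1β vesicles, 0.770% of all miRNA counts (exact binomial interval 0.629 to 0.932), and to 314 counts in control vesicles, 1.87% (1.67 to 2.08). These share intervals do not overlap. A share also depends on the counts of the other probes. In this vesicle RNA, fewer vesicles holding a miRNA, less of it per vesicle and more of other miRNAs cannot be told apart. The background threshold was passed by 3 of the 6 probes in IL-1β vesicles, where 34.8% of all miRNA probes passed, by 4 of the 6 in control vesicles, where 44.0% passed, and by 3 of the 6 in both, against 33.1% of all. The probes with no mouse counterpart passed this threshold in 41 of 69 cases in IL-1β vesicles (59.4%) and in 49 of 69 in control vesicles (71.0%), so passing it does not by itself show that a mouse miRNA was detected.

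**Figure D1:**
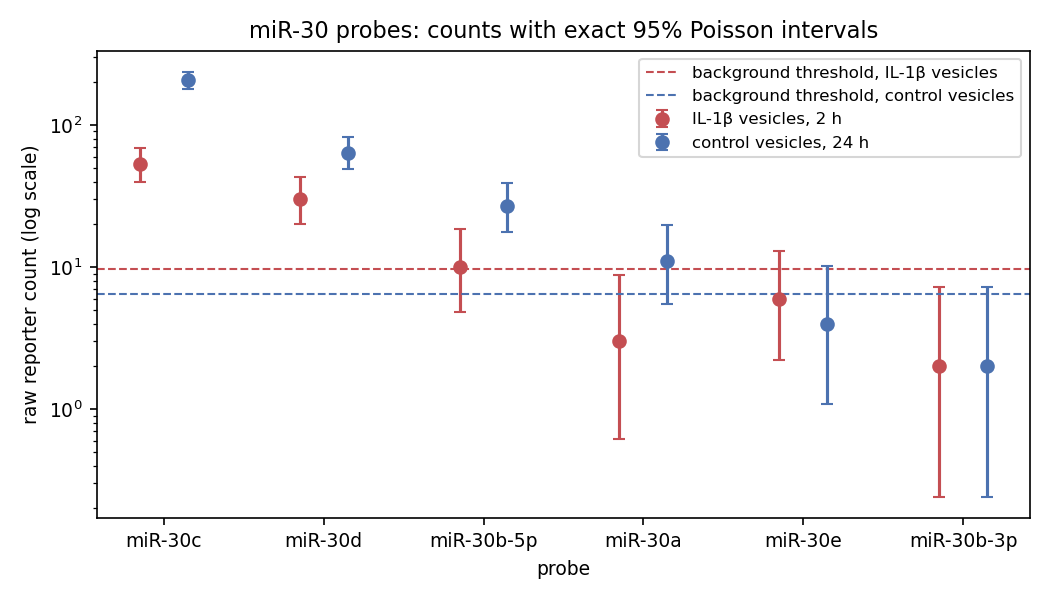
Raw reporter count (log axis) of each miR-30 probe in IL-1β vesicles (red, left of each pair) and control vesicles (blue), with exact 95% Poisson intervals and each sample's background threshold as a dashed line. Counts of miR-30c, miR-30d and miR-30b-5p lie higher in control vesicles and above both thresholds, while miR-30e and miR-30b-3p lie below them in both samples.

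The guide miR-30c, made at both Mir30c-1 and Mir30c-2, had 53 counts in IL-1β vesicles (Poisson interval 39.7 to 69.3) and 206 in control vesicles (179 to 236). Among the 420 miRNA probes it ranked 59th in IL-1β vesicles and 17th in control vesicles. It supplied about as many of the family's counts as the other 5 probes together in IL-1β vesicles, 51.0% (41.0 to 60.9), and more than they did in control vesicles, 65.6% (60.1 to 70.8). After scaling on the 100 most counted miRNA probes, the ratio of IL-1β over control vesicles was 0.294 (0.213 to 0.399), which is 3.40-fold lower. That was the 4th lowest of the 139 ratios of probes above background in both samples.

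The guide miR-30d, from the chromosome 15 pair, had 30 counts in IL-1β vesicles (20.2 to 42.8) and 64 in control vesicles (49.3 to 81.7). Its ratio was 0.536 (0.335 to 0.839), below 1 but short of 2-fold, and 17th lowest of the 139. Its chromosome 15 neighbour miR-30b-5p had 10 counts in IL-1β vesicles (4.80 to 18.4) and 27 in control vesicles (17.8 to 39.3). The IL-1β count stood only just above that sample's threshold, and the ratio of 0.423 (0.183 to 0.902) was accordingly wide, 10th lowest of the 139.

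The remaining 3 probes gave counts at the level of the negative controls in IL-1β vesicles. miR-30a had 3 counts in IL-1β vesicles, below background, and 11 in control vesicles, above it, a ratio of 0.312 (0.0558 to 1.18) whose interval includes 1. miR-30e, which differs from miR-30a by 1 base, had 6 counts in IL-1β vesicles and 4 in control vesicles, below background in both. miR-30b-3p, the passenger arm of the miR-30b hairpin, had 2 counts in each. A difference in miR-30e or miR-30b-3p was not detectable at this depth. Of the family's hairpins, miR-30b was the one with a probe for each arm. Its 5p probe gave 5.00 times the count of its 3p probe in IL-1β vesicles (1.07 to 46.9) and 13.5 times in control vesicles (3.39 to 117), with the 3p count at background level in both.

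By count, the order in IL-1β vesicles was miR-30c, miR-30d, miR-30b-5p, miR-30e, miR-30a and miR-30b-3p. In control vesicles miR-30a stood above miR-30e and the order was otherwise the same. Neighbours differed beyond counting error for miR-30c over miR-30d, 1.77-fold in IL-1β vesicles (1.11 to 2.86) and 3.22-fold in control vesicles (2.42 to 4.33). The same held for miR-30d over miR-30b-5p, 3.00-fold in IL-1β vesicles (1.43 to 6.88) and 2.37-fold in control vesicles (1.49 to 3.87). The step from miR-30b-5p to the next probe exceeded counting error in control vesicles, 2.45-fold over miR-30a (1.18 to 5.48), while in IL-1β vesicles the step to miR-30e was 1.67-fold (0.549 to 5.58). All lower neighbours had intervals that included equal counts. Probes capture their targets with different efficiency and near-identical members may share part of a count, so these orders describe counts, not molar amounts.

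All 3 members above background in both samples had a ratio below 1 with an interval below 1, against 31.7% of the 139 such probes with a ratio below 1 and 15.1% with an interval below 1. A probe was counted as lower or higher in IL-1β vesicles where it was at least 2-fold apart, by its ratio or by a bound against background, with an interval excluding 1. By that rule miR-30c and miR-30b-5p were lower, 2 of the 3 members with a value, against 9.38% of the 160 probes that had either value, and 0 of the 3 were higher, against 5.62%. The rule found 15 probes lower and 9 higher among the 160, a split that scaling moved to 46 lower and 0 higher with positive controls and to 14 lower and 15 higher with total miRNA count. The members' median ratio was 0.423, beside 1.21 over the 139 probes. Having passed the threshold, these 3 do not speak for miR-30a, miR-30e and miR-30b-3p.

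Summed over all 6 probes, miR-30 had a ratio of 0.378 (0.300 to 0.474), 2.64-fold lower in IL-1β vesicles. The sum follows miR-30c, and without it the other 5 probes had 51 counts in IL-1β vesicles and 108 in control vesicles, a ratio of 0.539 (0.379 to 0.759). Members were also set against each other within the samples, where no scaling enters. Of the 6 pairs among miR-30a, miR-30b-5p, miR-30c and miR-30d, 1 had an interval that excluded 1: the ratio of miR-30d was 1.82 times that of miR-30c (1.03 to 3.18), with no allowance for the number of pairs. The ratio of miR-30b-5p was 1.44 times that of miR-30c (0.583 to 3.30) and 0.790 times that of miR-30d (0.302 to 1.96). The intervals of the 3 pairs with miR-30a ran from 0.0976 to 4.21, so these counts leave large differences between members possible.

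**Figure D2:**
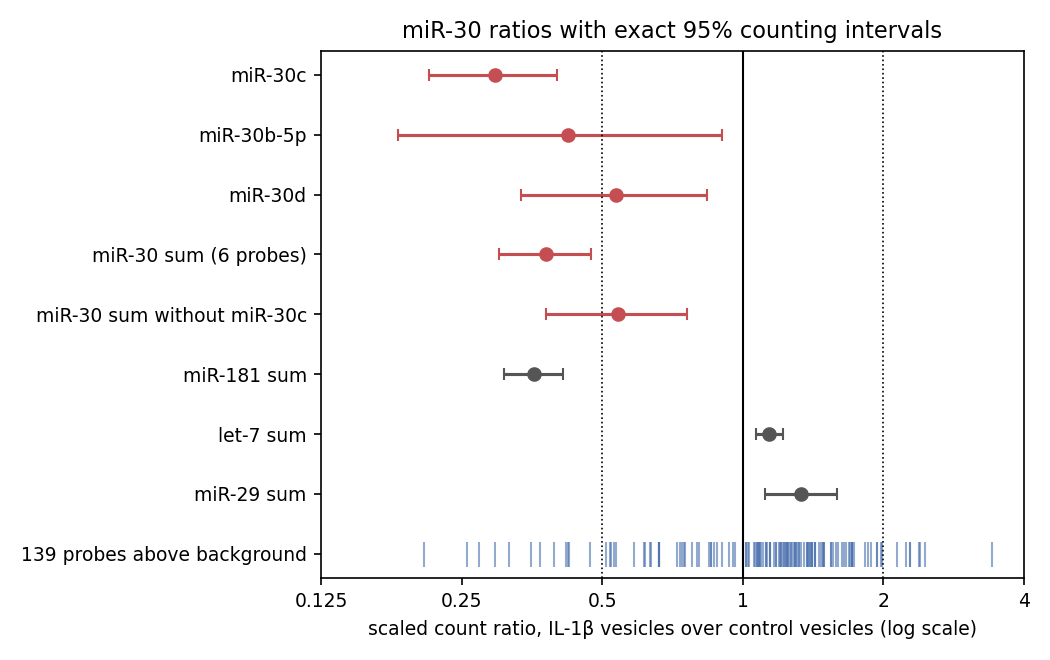
Scaled count ratio of IL-1β over control vesicles (log axis) with exact 95% counting intervals, for the 3 miR-30 probes above background in both samples, the summed family with and without miR-30c, and the sums of 3 other families. Blue ticks are the 139 single probes above background in both samples, and dotted lines mark 2-fold. By raw count all miR-30 intervals lie below 1, the miR-181 sum lies beside the miR-30 sum, and the let-7 and miR-29 sums lie above 1.

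Set against other families with a shared seed, the raw counts of miR-30 gave a lower ratio than those of let-7 and miR-29 and one not measurably different from that of miR-181. In the authors' deposited table the comparison with let-7 ran the same way and that with miR-29 was reversed. The let-7 family, which restrains growth genes, had 1769 counts in IL-1β vesicles and 1775 in control vesicles over 8 probes. The miR-30 ratio was 0.332 of the let-7 ratio (0.261 to 0.421), and 0.474 (0.331 to 0.672) without miR-30c. Summed signals of the authors' deposited table gave a let-7 ratio of 1.25, of which the miR-30 ratio was 0.496. Within let-7 the highest counts pointed both ways, with let-7b at 0.733 (0.650 to 0.825), let-7d at 0.934 (0.819 to 1.07), let-7i at 1.24 (0.956 to 1.61) and let-7c at 2.14 (1.79 to 2.56). The miR-29 family, which targets collagen genes, had 281 counts in IL-1β vesicles and 241 in control vesicles over miR-29a, miR-29b and miR-29c. By raw count the miR-30 ratio was 0.284 of the miR-29 ratio (0.212 to 0.380). In the authors' deposited table miR-29a, miR-29b and miR-29c were each lower in IL-1β vesicles, at ratios of 0.550, 0.319 and 0.401, where their raw counts gave ratios above 1. Their summed signals gave 0.480, so that the miR-30 ratio was there 1.29 times the miR-29 ratio, and the order of these families is not settled by these data.

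The miR-181 family had 251 counts in IL-1β vesicles and 805 in control vesicles over 3 probes, nearly all from miR-181a with 244 in IL-1β vesicles and 792 in control vesicles. The miR-30 ratio was 1.06 times the miR-181 ratio (0.808 to 1.39), so a difference of up to 1.39-fold is not excluded. Without miR-30c it was 1.51 times (1.03 to 2.20). In the authors' deposited table, where miR-181a is the listed member with both signals, it was 0.824 times. The miR-181b and miR-181d probe and the miR-181c probe had at most 8 counts.

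Probes most like the family were sought among 98 probes outside it that were above background in both samples. The mean count of each lay within 4-fold of the mean per probe of the 3 members above background in both samples. The 5 with a ratio nearest to that of the miR-30 sum were miR-27b, miR-290 (a probe whose name carries a background factor, not subtracted here), miR-25, miR-100 and miR-27a. Their ratios ran from 0.316 for miR-100 (91 against 329 counts, IL-1β against control vesicles) to 0.471 for miR-27a (144 against 349), with miR-27b at 0.369 (40 against 124). Likeness here is the distance between log2 raw-count ratios over 2 samples. It did not hold for all 5 in the authors' deposited table, where miR-100 was higher in IL-1β vesicles at a ratio of 2.05 and the other 4 were lower, at 0.346 for miR-290 to 0.840 for miR-27b, beside 0.620 for the miR-30 sum.

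Every miR-30 value above background also depends on what is taken as background. In IL-1β vesicles 12 of the 69 probes with no mouse counterpart had more counts than miR-30c, 18 had more than miR-30d and 40 more than miR-30b-5p. In control vesicles these numbers were 1, 9 and 18. With the 95th percentile of those probes as threshold, 112 counts in IL-1β vesicles and 105 in control vesicles, 0 of the 6 members passed in IL-1β vesicles and miR-30c alone in control vesicles. With the mean + 3 SD of the negative controls, 12.9 counts in IL-1β vesicles, miR-30b-5p lost its IL-1β value. It was then bounded at a ratio of at most 0.547, which no longer reached 2-fold.

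The direction of the 3 ratios was the same over 5 other scalings: positive controls, total miRNA count, median ratio, none, and probes with no mouse counterpart. A scaling divides all 3 ratios by the same factor, and none of these factors, 0.804 to 1.51, was far enough below 1 to change a direction. All but that of total miRNA count exceeded the main factor of 0.875 and so could only lower the ratios. Over these 5 scalings, miR-30c ran from 0.171 to 0.320, miR-30b-5p from 0.246 to 0.461 and miR-30d from 0.311 to 0.583. Both miR-30c and miR-30b-5p stayed at least 2-fold lower in all 5. miR-30d reached 2-fold in 4, total miRNA count being the exception.

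**Figure D3:**
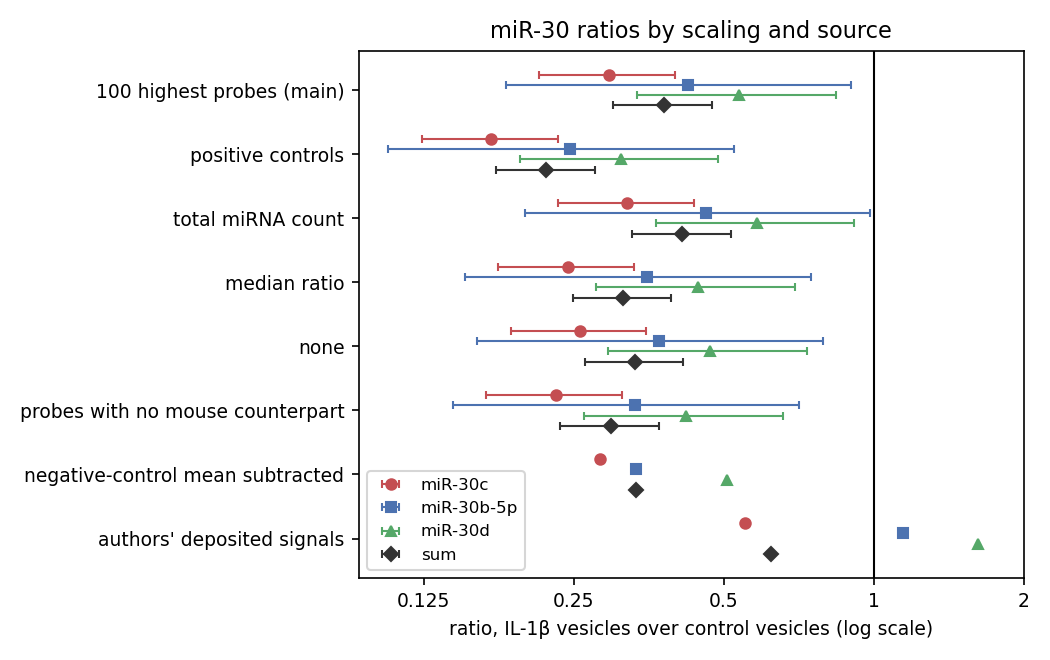
Ratio of IL-1β over control vesicles (log axis) for miR-30c, miR-30b-5p, miR-30d and the summed family under 6 scalings, with the mean of the negative controls subtracted, and from the authors' deposited signals. Lines are 95% counting intervals where raw counts were scaled. All points from raw counts lie below 1, and from the deposited signals miR-30b-5p and miR-30d lie above it.

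The authors' deposited table holds normalized signals of 124 miRNA probes, of which 119 have both, and lists 4 of the 6 members. In the authors' deposited table miR-30c had the highest signal of the 4, 613 in IL-1β vesicles and 1115 in control vesicles, a ratio of 0.550. It is the member for which both sources put IL-1β vesicles lower at a count well above the negative controls. Its 53 counts in IL-1β vesicles were still below 112, the 95th percentile there of the probes with no mouse counterpart. In the authors' deposited table miR-30a, at 3 against 11 raw counts, had signals of 142 in IL-1β vesicles and 393 in control vesicles, a ratio of 0.362. For miR-30d the authors' deposited table gives 232 in IL-1β vesicles and 143 in control vesicles, a ratio of 1.62, where the raw counts give 0.536. For miR-30b-5p the authors' deposited table gives 81.2 in IL-1β vesicles and 70.9 in control vesicles, a ratio of 1.14, where the raw counts give 0.423.

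From the deposited signals the members thus split, with miR-30c and miR-30a below 1 and both chromosome 15 members above it. That is 2 of 4 below 1, beside 62.2% of the 119 probes, and 1 of 4, miR-30a, at least 2-fold lower, beside 8.40%. Summed over the 4 members the deposited signals were 1068 in IL-1β vesicles and 1722 in control vesicles, a ratio of 0.620, with miR-30c holding 57.4% of the sum in IL-1β vesicles and 64.8% in control vesicles. The signals carry no counts, so they have no counting interval, and no source used here gives their normalization. The reason for the difference between the sources was not tested.

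**Figure D4:**
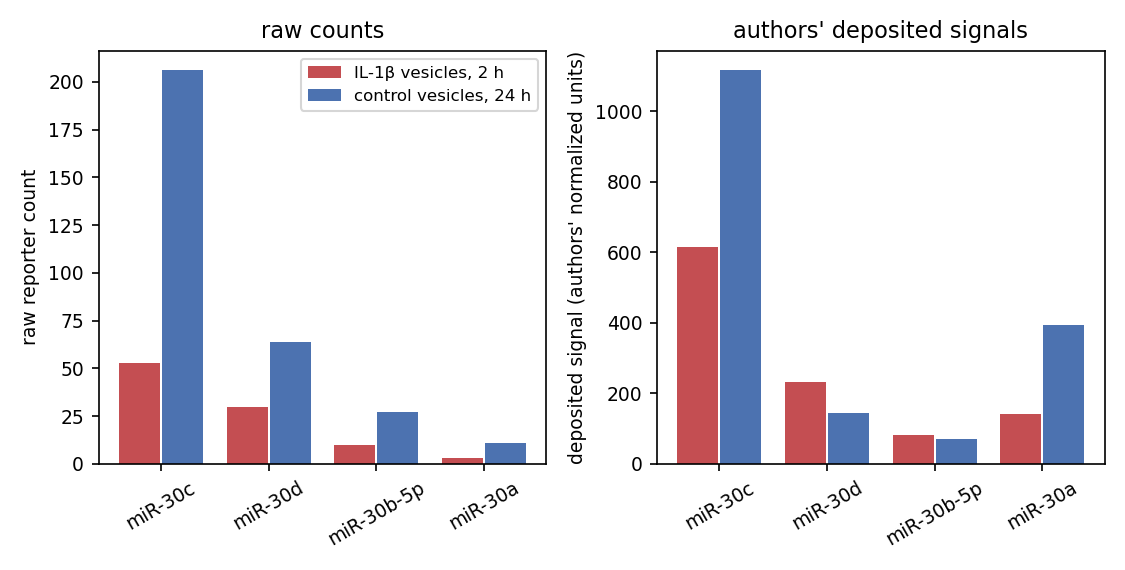
Raw reporter counts (left panel) and the authors' deposited signals (right panel) of the 4 miR-30 probes present in both sources, for IL-1β vesicles (red, left bar) and control vesicles (blue). In both panels miR-30c is highest in each sample, and miR-30d and miR-30b-5p are lower in IL-1β vesicles by count and higher by signal.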

How the data were processed

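Vesicle RNA from 2 samples was measured with a rat nCounter miRNA code set. Per the file headers, the 2 raw files hold reporter counts with no normalization, from 1139 of 1150 fields of view for IL-1β vesicles and 1121 of 1150 for control vesicles. The authors also deposited normalized signals and, per probe, the ratio between the samples, IL-1β on top. The deposited value table holds the same 124 signal pairs.

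The lanes were brought to one scale with the 100 most counted miRNA probes (geometric means, factor 0.875), without background subtraction, which understates differences at low counts. Ratios have exact Clopper-Pearson intervals of the split of counts, and ratios of ratios exact conditional intervals (Python 3.11.15, scipy 1.17.1). The code was tested on simulated data. Alternatives were 5 scalings, background subtraction, stricter thresholds, other fold minimums and the deposited signals. A mouse counterpart is a mouse miRNA gene of the probe's number in RefSeq, GRCm38.p6. Named were all members, up to 4 highest probes of each comparison family and the 5 nearest ratios. The members and lists were chosen with earlier results of these data known.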

Additional observations from a re-analysis of the deposited data

How the results depend on the processing

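No paired analysis was possible because each group held 1 sample. Of the ratios of the 3 probes and the sum, 26 were recomputed from raw counts by another scaling, background subtraction or choice of probes, and all 26 stayed below 1. A scaling divides all ratios by the same factor. From unscaled ratios of 0.257 to 0.469, the factors used, 0.804 to 1.51, could not bring any ratio to 1. The 26 values reuse the same counts and are not independent checks. With positive controls, ratios were 0.171 for miR-30c, 0.311 for miR-30d and 0.220 for the sum. The sum was 0.296 when scaled on probes with no mouse counterpart and 0.539 without miR-30c, both chosen after seeing the data. With the authors' deposited signals the ratios were 0.550 for miR-30c and 0.620 for the sum, and turned to 1.14 for miR-30b-5p and 1.62 for miR-30d; the cause was not tested. Those signals placed miR-30a 3rd of 4 in IL-1β vesicles and 2nd in control vesicles, against 4th in both by count. They placed miR-30b-5p 4th in both, against 3rd, and miR-30d 3rd in control vesicles, against 2nd.

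Against 15 lower and 9 higher probes, there were 46 and 0 with positive controls, 24 and 2 after median-ratio scaling, and 27 and 1 with probes without a mouse counterpart. There were 26 and 19 at a fold minimum of 1.5, and 1 and 0 at a minimum of 4, where miR-30 had none. There were 14 and 15 with total miRNA count, 21 and 4 with no scaling, and 19 and 16 with background subtracted. Without miR-30c, the miR-30 ratio was 0.474 of that of let-7, 0.405 of that of miR-29 and 1.51 times that of miR-181, and it then excluded 1 for miR-181. With the authors' deposited signals, a comparison chosen after seeing the data, the miR-30 ratio was 0.496 of that of let-7 and turned to 1.29 times that of miR-29; the cause was not tested. With the 95th percentile of probes without a mouse counterpart as threshold, 0 members passed in IL-1β vesicles and 1 in control vesicles. Background subtraction gave no value for pairs with miR-30a, whose IL-1β count fell below the negative-control mean. Depth limits miR-30a, miR-30e and miR-30b-3p, with at most 11 counts.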

Other observations

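The deposited signal of miR-30a was high for its raw count. It stood at 47.4 per count in IL-1β vesicles, where the median over 119 probes was 4.19 and 0 were higher, and at 35.7 in control vesicles, where the median over 124 probes was 2.35 and 6 were higher. For miR-30c the signal per count was 11.6 in IL-1β vesicles and 5.41 in control vesicles, for miR-30d 7.72 in IL-1β and 2.24 in control vesicles, and for miR-30b-5p 8.12 in IL-1β and 2.63 in control vesicles.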
